A study of Homo sapiens with 2 samples.

Results

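To examine where ETV4 sits around the matrix metalloproteinase (MMP) genes, the anti-Flag ChIP-seq peaks lying within 20 kb of 10 of these genes were collected. The genes were MMP1, MMP2, MMP3, MMP7, MMP9, MMP10, MMP13, MMP14, MMP15 and MMP24, taken as classic targets of the PEA3 group in invasion. The rule names the genes and uses no value of the peaks, but the genes were chosen with earlier results of these data known. A peak was kept if its interval came within 20 kb of the RefSeq span of the gene. In total, 38 distinct peaks of the 54389 in the list met this rule, and they fell to 8 of the 10 genes. No peak was within 20 kb of more than 1 of the genes, so each was counted once.

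The experiment had 1 anti-Flag immunoprecipitate and 1 input library, both from A549 cells, an established human lung adenocarcinoma line. These cells carried shETV4, an shRNA against ETV4, and received Flag-ETV4 by transfection, so the bound protein was a tagged, re-expressed one and not endogenous ETV4. There was no replicate, no cells without Flag-ETV4 were compared here, and no test between conditions was possible. Peaks hold no expression, so whether any MMP gene was transcribed in these cells cannot be read from them. The labels and the paper's methods name the Flag antibody from different suppliers, and this was not settled.

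MMPs are zinc endopeptidases that cut collagens and other proteins of the extracellular matrix, and tumor cells use them to cross basement membrane and stroma. Collagenases (MMP1, MMP13), stromelysins (MMP3, MMP10) and matrilysin (MMP7) are secreted and encoded together on chromosome 11, the gelatinases MMP2 and MMP9 are secreted and encoded elsewhere, and MMP14, MMP15 and MMP24 are membrane-type enzymes held at the cell surface. ETV4 is an ETS factor of the PEA3 group. ETS factors recognize a GGAA core, and in several MMP promoters such a core lies close to an AP-1 site, the element bound by FOS and JUN proteins.

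The promoters show how unlike these genes are at their starts. RefSeq promoter windows on GRCh38.p14 were at hand for 5 of the 10 genes, MMP7, MMP10, MMP14, MMP15 and MMP24, and the other 5 were not analysed here by sequence. The 250 bases before the start are printed 5′ to 3′ on the strand of the gene, because 3 of these windows lay under a peak and 2 did not. Capitals mark every GGAA, read on either strand (as GGAA or TTCC), and every TGANTCA, used here as the AP-1 word with N any base. MMP7 (chr11:102530748-102530997, minus strand) and MMP10 (chr11:102780629-102780878, minus strand) had no peak at the promoter. MMP14 (chr14:22836335-22836584, plus strand), MMP15 (chr16:58025504-58025753, plus strand) and MMP24 (chr20:35226440-35226689, plus strand) had one.
MMP7: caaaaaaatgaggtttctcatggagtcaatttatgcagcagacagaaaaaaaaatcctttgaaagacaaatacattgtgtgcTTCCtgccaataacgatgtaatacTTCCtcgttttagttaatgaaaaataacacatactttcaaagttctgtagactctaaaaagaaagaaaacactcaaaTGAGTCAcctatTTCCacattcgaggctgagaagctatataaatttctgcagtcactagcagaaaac
MMP10: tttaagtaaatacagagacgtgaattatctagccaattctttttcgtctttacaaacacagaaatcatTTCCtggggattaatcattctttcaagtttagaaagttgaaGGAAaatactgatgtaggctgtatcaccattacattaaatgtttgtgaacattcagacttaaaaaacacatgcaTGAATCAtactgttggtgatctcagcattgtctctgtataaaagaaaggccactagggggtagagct
MMP14: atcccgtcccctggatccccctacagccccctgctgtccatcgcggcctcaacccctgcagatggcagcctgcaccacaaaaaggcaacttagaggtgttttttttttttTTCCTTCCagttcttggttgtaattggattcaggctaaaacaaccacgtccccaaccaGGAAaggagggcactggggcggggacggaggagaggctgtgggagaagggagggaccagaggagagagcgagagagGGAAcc
MMP15: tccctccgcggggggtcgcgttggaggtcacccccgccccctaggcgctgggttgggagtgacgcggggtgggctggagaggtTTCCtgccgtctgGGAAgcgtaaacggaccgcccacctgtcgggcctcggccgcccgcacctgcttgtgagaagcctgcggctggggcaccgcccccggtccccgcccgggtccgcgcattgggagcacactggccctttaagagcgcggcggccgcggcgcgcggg
MMP24: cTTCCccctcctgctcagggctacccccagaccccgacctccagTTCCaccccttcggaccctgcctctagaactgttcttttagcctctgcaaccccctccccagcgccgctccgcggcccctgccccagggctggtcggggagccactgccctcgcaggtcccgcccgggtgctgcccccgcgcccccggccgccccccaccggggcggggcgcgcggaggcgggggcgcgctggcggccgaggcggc

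Words were searched on both strands in the whole RefSeq window of 300 bases, which runs 250 before to 50 after the start. The MMP7 window held GGAA 3 times and MMP10 held it 2 times. MMP14 had 5 matches, and MMP15 and MMP24 had 2 each. This core is common, and 95.2% of 22132 protein-coding promoter windows held it. The longer word AGGAAG, which contains GGAA and is a PEA3-type form, was present 2 times in MMP7 and in none of the other 4 windows, against 33.5% of all windows. CCGGAA, another ETS form that contains GGAA, occurred once, in MMP14 from position 41 after the start and so beyond the printed bases. It was found in 21.2% of all windows. TGANTCA was present in MMP7 (as TGAGTCA) and MMP10 (as TGAATCA), in both starting 67 bases before the gene. None of the membrane-type genes held it, against 6.15% of all windows, a share that counts any middle base. Among these 5 windows, the 2 with the AP-1 word were the 2 without a peak. The share of all windows with this word that carry a peak was not counted, so no link is drawn from it. A match of letters is a description and does not show binding.

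The 2 windows without a peak were also the poorest in G and C. GC content was 35.7% in MMP7 and 36.3% in MMP10, against 55.0% in MMP14, 75.3% in MMP15 and 80% in MMP24. Over all protein-coding promoter windows, 54.3% were overlapped by a peak. At GC limits picked once the values were known, the share was 73.2% of the 12882 windows with a GC content of 60% or more, 32.4% of the 7849 windows between 40% and 60%, and 2.86% of the 1401 windows under 40%. The part of base composition in the pattern of the MMP promoters was not tested.

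A peak somewhere nearby was common for MMP genes and for other genes alike. It was found within 20 kb for 8 of the 10 genes and for 86.3% of the 19974 protein-coding genes. At the ends of the genes peaks were found for 4 of 10, MMP9, MMP14, MMP15 and MMP24, no more than 1 kb from at least 1 end, against 62.3% of all protein-coding genes. Among the 5 genes whose direction was known from the promoter table, the 5′ end carried a peak at up to 1 kb for 3, against 64.5% of 15812 protein-coding genes in that table. With only 10 and 5 genes, the share within 20 kb and the share at the 5′ end were near their backgrounds. The share at the gene ends was lower than its background, and the gap was not tested. With a fold of 10 or more required, the background within 20 kb fell to 72.5% while 8 of the 10 genes still had a peak, and the background at gene ends fell to 45.4% with 4 of 10.

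The peaks were unevenly shared among the genes. MMP9 had 9 peaks, MMP14 and MMP24 had 8 each, MMP15 had 6, MMP13 had 3, MMP10 had 2, MMP3 and MMP7 had 1 each, and MMP1 and MMP2 had none. The map of peaks around each gene shows that most bars stood outside the gene bodies. A summit lay inside a member gene for 7 of the 38 peaks, 4 of them in MMP24 and 1 each in MMP9, MMP14 and MMP15. Each window adds 20 kb on both sides of a gene, and the same share over all protein-coding genes was not counted. The count therefore describes the layout of the windows as much as the MMP genes.

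**Figure D1:**
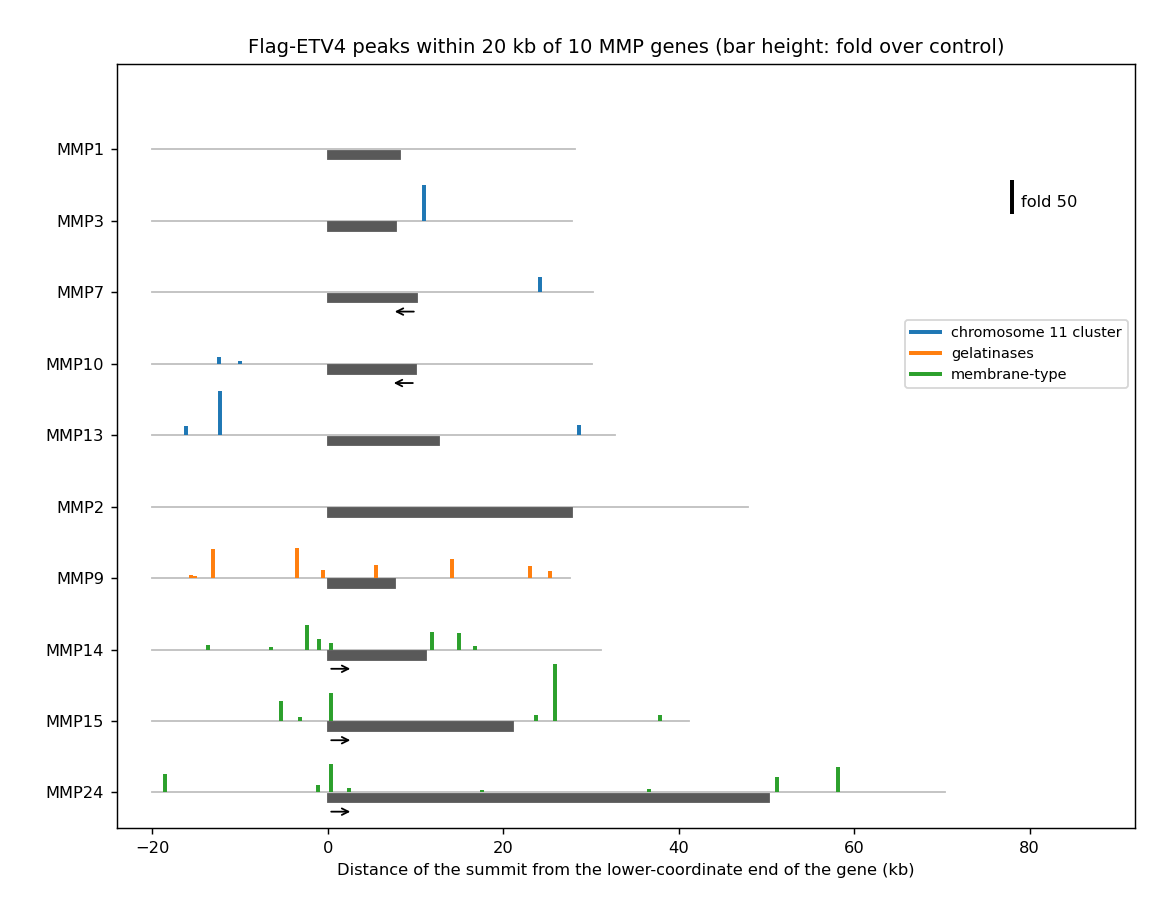
Peaks within 20 kb of each of the 10 MMP genes. The x axis gives the distance of the summit from the lower-coordinate end of the gene in kb, dark boxes are the genes, grey lines the searched windows, arrows the direction of transcription where the promoter table gave it, and bar height the fold over the control. MMP1 and MMP2 have no bar, and the tallest bar, of fold 84.1, stands beyond the higher end of MMP15.

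For each peak the list gives a fold enrichment over the input-based control at the summit and a −log10 q. The number of fragments piled up at the summit and the control level expected there were solved from the fold and the −log10 p. The fold of the 38 peaks ran from 2.97 to 84.1 with a median of 15.3, against a median of 9.63 over all peaks. An order-statistic 95% confidence interval of the former median was 10.05 to 26.3. It treats the peaks as independent draws, although they cluster around 8 chosen genes in 1 library. The interval is therefore no test of a difference from all peaks. A fold of 40 or more was reached by 7 of the 38 peaks (18.4%) and by 9.40% of all peaks. This cut was not among the planned settings. Of the 7, several lay just above it, at 40.7, 42.4, 42.9 and 44.2, and the others were at 52.8, 65.1 and 84.1. The share of MMP peaks thus depends on where the cut is set. The median width was 658 bp, against 519 bp in the whole list, with a range of 232 to 1807 bp. The −log10 q ran from 2.06 to 332 with a median of 34.2. Pileups were between 7 and 244 fragments, with a median of 39 against 26 for all peaks, and 10 of the 38 peaks had the lowest control level of the list, 1.28 fragments. The control level at the MMP peaks reached 5.40 and had a median of 1.70, close to the 1.67 of all peaks. Intervals on pileups below are exact Poisson 95% confidence intervals and cover counting error only.

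**Figure D2:**
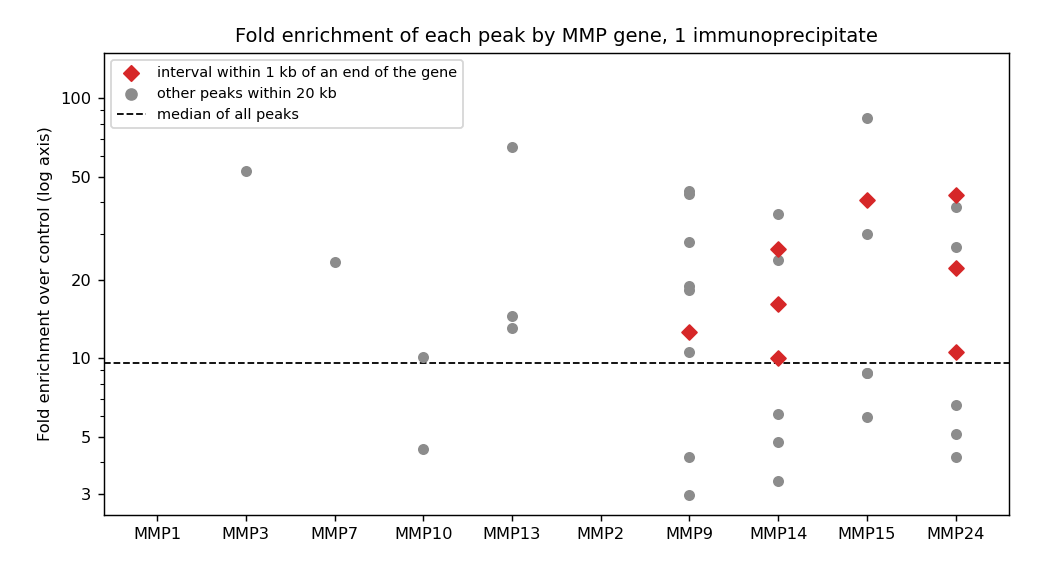
Fold enrichment over the control, on a log axis, of each of the 38 peaks by gene. Red diamonds are the 8 peaks within 1 kb of an end of the gene, grey points are the others, and the dashed line is the median of all peaks, 9.63. All 8 diamonds lie above the line, and the strongest peaks of MMP3, MMP9, MMP13, MMP14 and MMP15 are grey.

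On the density of peaks the MMP genes were split. Per 100 kb of the gene span with its flanks, there were 7.11 peaks (exact Poisson 95% confidence interval 5.03 to 9.76) over the 534 kb of all 10 windows. Taken over the merged windows of all protein-coding genes the density was 2.45 per 100 kb. MMP9 had 18.9 peaks per 100 kb, a density that 99.4% of protein-coding genes did not exceed. MMP14 followed with 15.6 (98.2nd percentile), MMP15 with 9.81 (90.5th percentile) and MMP24 with 8.86 (87.4th percentile). In the chromosome 11 cluster, MMP13 with 5.69 (74.1st percentile) and MMP10 with 3.99 (60.7th percentile) were also above the median gene, at 2.90. In contrast, MMP3 with 2.09 and MMP7 with 1.99 were below it, and MMP1 and MMP2 had no peak. By class, the membrane-type windows held 10.9 per 100 kb (6.80 to 16.4), the gelatinase windows 7.79 (3.56 to 14.8), all from MMP9, and the chromosome 11 windows 3.24 (1.30 to 6.67). The gelatinase interval overlapped both of the others. These intervals treat peaks as independent counts, and the genes were not drawn at random, so no test was made between the classes. The 13 peaks whose nearest protein-coding end belonged to another gene all lay in the membrane-type and MMP9 windows. The densities of those classes include them.

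Among the membrane-type genes, MMP15, which encodes MT2-MMP, had the peak with the highest fold and −log10 q of all 38. Its gene lies on chromosome 16 from 58025754 to 58046901. This peak, from 58051181 to 58051927, lay 4762 bp (summit) beyond the 3′ end. Its fold of 84.1 was at the 98.4th percentile of the list and its pileup at the 96.7th. The −log10 q was 332, and 191 fragments (165 to 220) piled up over a control level of 1.28. MMP15 also had a peak over its start, from 58025423 to 58026897, a wide one of 1475 bp that covered the promoter printed above. There the fold was 40.7 and the −log10 q 165, with 122 fragments (101 to 146) at a summit 421 bp inside MMP15. The intervals of the 2 pileups did not overlap, so the peak past the 3′ end was the higher one beyond counting error.

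The remaining 4 peaks at MMP15 were weaker. A peak from 58020149 to 58020904 had a fold of 30.2 and a −log10 q of 88.3, and its summit was inside USB1, 1144 bp from an end of that gene, whose product trims U6 RNA. One from 58022393 to 58022872, also nearest to USB1, had a fold of 5.95 and a −log10 q of 8.17. The last 2, from 58049383 to 58049755 and from 58063447 to 58063940, were alike, each with a fold of 8.76, a −log10 q of 14.4 and 19 fragments. MMP15 was thus marked at its start and past its 3′ end, with no summit in the gene body apart from that near the start.

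MMP14, which encodes MT1-MMP, the enzyme that activates pro-MMP2 at the cell surface, lies on chromosome 14 from 22836585 to 22847758. The peak over its start, from 22836321 to 22837868, was 1548 bp wide, with a fold of 10.05 and a −log10 q of 20.2. Its summit, 428 bp past the start, held 26 fragments (17.0 to 38.1), the median number of the list, and its interval covered the whole promoter printed above. Next to it, a peak from 22835273 to 22835934 had a fold of 16.2, a −log10 q of 37.1 and a summit exactly 1000 bp upstream. That summit was nearer to an end of MRPL52, a gene of the mitochondrial ribosome, at 548 bp. A stronger peak stood on each side of the gene. The one upstream, from 22833815 to 22834478, had a fold of 35.8, a −log10 q of 119 and 89 fragments (71.5 to 110). Its summit was 2366 bp before the start of MMP14 but inside MRPL52. The one downstream, from 22847947 to 22848921, had a fold of 26.3, a −log10 q of 73.1 and 59 fragments (44.9 to 76.1), with its summit 677 bp past the 3′ end.

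The other MMP14 peaks were a strong one downstream and 3 weak ones. The strong one, from 22850918 to 22851752, had a fold of 24.0 and a −log10 q of 72.7. The weak ones had folds of 6.13, 3.37 and 4.76 and pileups of 13, 7 and 15 fragments. The peak with 7 fragments, from 22830068 to 22830479, was at the 1.97th percentile of fold and had its summit 275 bp from an end of MRPL52. In MMP14, then, the start carried the weakest of the 3 peaks within 1 kb of an end, although the pileup intervals of that peak and its upstream neighbor (36 fragments, 25.2 to 49.8) overlapped.

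MMP24, which encodes MT5-MMP, an enzyme best known from the nervous system, is the longest of the 10 genes at 50.3 kb and lies on chromosome 20 from 35226690 to 35276998. Its highest fold was at its start. The peak from 35226357 to 35227361 had a fold of 42.4, a −log10 q of 183 and 135 fragments (113 to 160) at a summit 345 bp past the start. Just upstream, a peak from 35225398 to 35225876 had a fold of 10.6, a −log10 q of 30.1 and a summit 1092 bp before the start. Inside the gene, 3 further peaks had folds of 6.64, 4.16 and 5.13 and pileups of 20, 13 and 13 fragments, so the gene body held only weak peaks.

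Past the 3′ end of MMP24 the peaks adjoined other genes. The peak from 35277143 to 35278313, with a fold of 22.2, a −log10 q of 89.1 and 85 fragments (67.9 to 105), had its summit 937 bp beyond MMP24 and 187 bp from an end shared by MMP24OS and the readthrough gene MMP24-AS1-EDEM2. The peak from 35284019 to 35285825 was the widest of the 38, at 1807 bp, and had the highest pileup, 244 fragments (214 to 277). Its fold was 38.3 and its −log10 q 299, and its summit was 74 bp from an end of EIF6, a translation factor, and 7848 bp from MMP24. On the other side, the peak from 35207946 to 35208642, with a fold of 26.7 and a −log10 q of 129, had its summit inside PROCR, the protein C receptor gene. The readthrough gene spans 7 of these 8 summits, so a peak here cannot be given to a single gene by position.

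Control levels at the MMP24 peaks ran from 1.73 to 5.40 fragments, and at the MMP15 peaks from 1.28 to 2.03. The part of this difference in the folds was not tested.

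MMP9, which encodes gelatinase B and cuts type IV collagen of basement membranes, had the most peaks. It lies on chromosome 20 from 46008908 to 46016561. Its direction was not in the promoter table, so its ends are named by coordinate, as are those of MMP1, MMP2, MMP3 and MMP13. The peak nearest to an end, from 46008178 to 46008774, stopped 134 bp short of the lower end, with a summit 580 bp from it. Its fold was 12.6 and its −log10 q 31.4, with 37 fragments (26.1 to 51.0). Farther out on that side were the 2 strongest peaks of the gene. The peak from 46004836 to 46005744 had a fold of 44.2, a −log10 q of 146 and 100 fragments (81.4 to 122), 3506 bp from the lower end. That from 45995375 to 45996268 had a fold of 42.9, a −log10 q of 161 and 115 fragments (94.9 to 138), 13022 bp from it. These 2 did not differ from each other beyond counting error in pileup, and both were higher than the peak beside the gene.

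At the far side of the same flank lay 2 of the weakest peaks of the set, with folds of 4.16 and 2.97 and −log10 q values of 4.31 and 2.12. The latter, from 45993702 to 45993976, had the lowest fold of the 38, at the 0.434th percentile of the list. Inside MMP9, a peak from 46014028 to 46014784 had a fold of 18.9 and a −log10 q of 58.9, and its summit was also inside the antisense transcript SLC12A5-AS1. Beyond the higher end of MMP9, 3 peaks fell within SLC12A5, a potassium-chloride cotransporter gene known from neurons. Their folds were 28.1, 18.3 and 10.6 and their −log10 q values 100, 45.1 and 24.0. The strongest of these, from 46021567 to 46023303, was 1737 bp wide with a summit 1352 bp from an end of SLC12A5.

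MMP2, the other gelatinase gene, on chromosome 16 from 55478830 to 55506691, stood at the opposite extreme. No peak of the list came within 20 kb, and the nearest, from 55639600 to 55639843 with a fold of 4.82, was 133 kb away. A peak list holds only what passed the caller's threshold, with a lowest −log10 q of 1.3, so weaker signal at MMP2 cannot be judged from it.

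The 5 genes of the chromosome 11 cluster had 7 peaks within 20 kb, none of them inside a gene, a count without a background. None was within 1 kb of an end, against 62.3% of all protein-coding genes with a peak that near. The closest approach was at MMP3. MMP13, whose product is a collagenase active on type II collagen, lies from 102942995 to 102955732 and had the strongest peak of the cluster. It ran from 102930399 to 102931201, with a fold of 65.1, a −log10 q of 246 and 152 fragments (129 to 178), and its summit was 12251 bp from the lower end of MMP13. The other 2 MMP13 peaks were farther out, 1 on each side. That from 102926631 to 102927135 had a fold of 13.1 and a −log10 q of 27.2, and that from 102971394 to 102971827 a fold of 14.5 and a −log10 q of 31.3.

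MMP3, stromelysin 1, lies from 102835801 to 102843609 and had a single peak. It ran from 102846286 to 102847264, 979 bp wide, with a fold of 52.8, a −log10 q of 224 and 152 fragments, the same number as at MMP13. Its edge was 2677 bp and its summit 3225 bp from the higher end of MMP3. It was also within 20 kb of MMP12, which is not among the 10 genes. MMP7, at 102520508 to 102530747, had a single peak as well, from 102544503 to 102544987, with a fold of 23.4, a −log10 q of 65.3 and 56 fragments (42.3 to 72.7). As MMP7 is read from the minus strand, this peak lay upstream, 14012 bp from the start whose AP-1 and AGGAAG words are printed above.

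MMP10, stromelysin 2, at 102770502 to 102780628, had 2 peaks, both past its 3′ end. The one from 102757985 to 102758436 had a fold of 10.1, a −log10 q of 18.6 and 23 fragments (14.6 to 34.5). The one from 102760338 to 102760664 had a fold of 4.46, a −log10 q of 5.35 and 14 fragments (7.65 to 23.5), and the 2 intervals overlapped. MMP1, interstitial collagenase, at 102789919 to 102798160, had no peak within 20 kb, and the nearest was this weaker MMP10 peak at 29.3 kb.

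**Figure D3:**
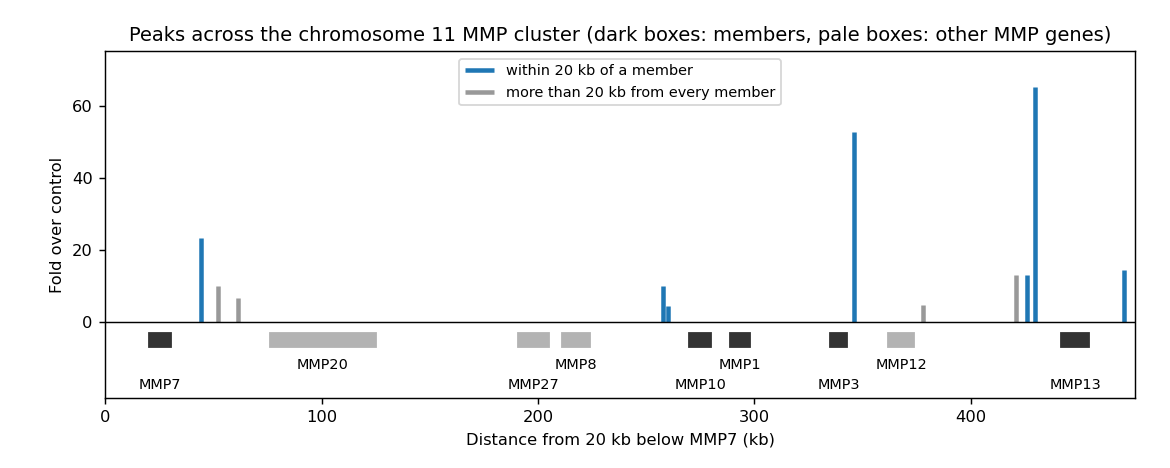
Peaks across the chromosome 11 cluster. The x axis is the distance in kb from a point 20 kb below MMP7, the y axis is the fold over the control, and boxes are genes, dark for the members and pale for other MMP genes. The 2 tallest bars, of fold 65.1 and 52.8, stand between genes near MMP13 and MMP3, and the stretch from MMP20 to MMP8 is empty.

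Over the whole cluster the density of peaks was like that around other genes. The stretch from 20 kb below MMP7 to 20 kb above MMP13, 102500508 to 102975732, covers 475 kb and 9 protein-coding genes, all of them MMPs. It held 11 peaks, or 2.31 per 100 kb (1.16 to 4.14), close to the 2.45 per 100 kb over all protein-coding windows. No summit of the 11 was inside a protein-coding gene, but no background was counted for this, and much of the stretch lies between genes. An end with a peak at up to 1 kb was found for 0 of the 9 genes, against the background of 62.3% for gene ends. The longest stretch between neighboring peaks was 196 kb, from 102562017 to 102757985, and it held MMP20, MMP27 and MMP8 entirely. The 4 peaks of the cluster outside the 20 kb windows of the 5 genes had folds of 9.93, 6.76, 4.63 and 13.1. The last, from 102921685 to 102922242, was just outside the limit, 20753 bp from MMP13. Among the 38 peaks inside the limit, the outermost, in PROCR, was 18048 bp from MMP24.

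Position thus gave different answers for different members. Of the 38 peaks, 25 had a member as the protein-coding gene with the nearest end and 13 had another gene. All 7 chromosome 11 peaks had an MMP gene as the protein-coding gene with the nearest end. At both MMP10 peaks an end of LOC100421658, which is not protein-coding, was nearer, 8622 and 6330 bp from the summits. At MMP14, MMP15 and MMP24 the neighbors MRPL52, SLC7A7, USB1, PROCR, MMP24OS, MMP24-AS1-EDEM2 and EIF6 were nearer for some, as was SLC12A5 at MMP9. Which gene a peak acts on was not measured.

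The other MMP genes, 13 in number, showed a similar range. A peak within 20 kb was found for 9 of 13 and a peak within 1 kb of an end for 6 of 13, against 8 of 10 and 4 of 10 of the genes above and the same backgrounds of 86.3% and 62.3%. The strongest peaks within 1 kb of an end were at MMP16 (MT3-MMP), with a fold of 72.1 and 186 fragments, at MMP17 (MT4-MMP), with 61.0 and 139 fragments, and at MMP25 (MT6-MMP), with 39.7 and 108 fragments. MMP8, MMP21, MMP26 and MMP27 had no peak within 20 kb. All 6 membrane-type genes, MMP14, MMP15, MMP16, MMP17, MMP24 and MMP25, therefore had a peak at an end, a grouping made once the values were known, so it is a description and not a test. The median density of peaks was 4.84 per 100 kb over the 10 genes and 2.35 over the other 13, with 2.90 over all protein-coding genes.

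Of 6 genes whose products restrain or induce MMPs, 5 had a peak within 20 kb and 4 had one within 1 kb of an end, beside backgrounds of 86.3% and 62.3%. The highest folds at an end were 23.4 at BSG, the MMP inducer basigin, 20.1 at TIMP1 and 15.0 at RECK, both inhibitors. TIMP3 had none within 20 kb, although one with a fold of 24.1 was 20449 bp away, just past the limit. Their median density was 5.29 peaks per 100 kb, and none of the 6 reached the density of MMP9 or MMP14, as the bars of peaks per 100 kb show. The members and these regulators were compared by these values only.

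**Figure D4:**
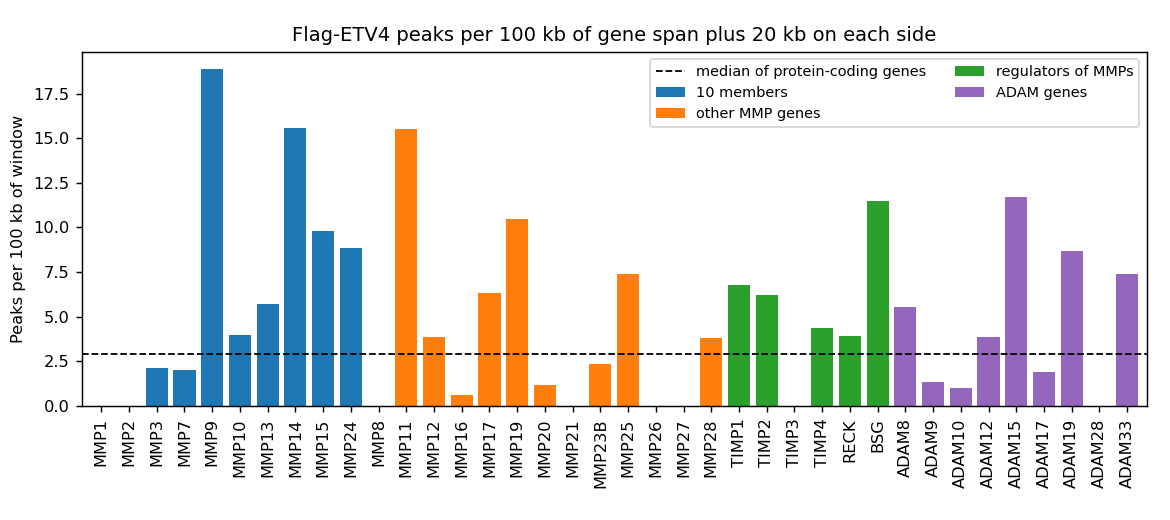
Peaks per 100 kb of gene span plus 20 kb on each side, for the 10 genes, the other MMP genes, regulators of MMPs and ADAM genes. Bars start at 0 and the dashed line is the median of protein-coding genes, 2.90. MMP9 has the tallest bar, 18.9, followed by MMP14 with 15.6 and MMP11 with 15.5.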

How the data were processed

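Sonicated chromatin of A549-shETV4 cells carrying Flag-ETV4 was immunoprecipitated with anti-Flag and sequenced beside its input. The authors deposited 1 narrowPeak list, called on the single immunoprecipitate, with a fold enrichment ratio over the control, the −log10 p and the −log10 q at each summit. The submitters' processing notes name Bowtie2 2.4.1, SAMtools, MACS2 2.2.7.1, deepTools 3.5.0 and hg38. The paper names a fold cut-off for this list. Duplicate handling and the q cut-off are not stated in the sources used here, and either could change which weak peaks are listed. The lowest −log10 q in the list is 1.3. The input was not analysed here on its own.

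Peaks were set against RefSeq genes of GRCh38.p14 on chromosomes 1 to 22 and X (19974 protein-coding). The distance is from the peak interval to the span or end, and to nearest genes from the summit. Pileup and control level were solved from the fold, taken as (pileup + 1) / (control + 1), and the Poisson −log10 p. Pileups came within 0.00914 of whole numbers, and the solver was tested on 20000 simulated peaks. The percentile of a value is the share of all peaks or genes at or below it. Members and lists were chosen with earlier results of these data known. All 10 members are named, with genes nearest to or holding their peaks, and of each further list the 3 genes with the highest fold at an end and those without a peak within 20 kb. MMP12, MMP20 and MMP11 were added after their values were seen. Calculations ran in Python 3.11.15 with pandas 2.3.3, numpy 2.4.6 and scipy 1.17.1, and plots were drawn with matplotlib 3.10.9.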

Additional observations from a re-analysis of the deposited data

How the results depend on the processing

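The number of distinct peaks, 38, became 20 with a window of 5 kb and 25 with 10 kb, and the number of MMP genes with a peak fell from 8 of 10 to 5 with 5 kb and 6 with 10 kb, where the share of protein-coding genes with a peak was 78.6% and 81.9%. The density of 7.11 per 100 kb became 4.18 within the gene spans alone and 4.87 with a fold of 10 or more required. No background density was computed at either setting, so these values cannot be set beside the 2.45 of all protein-coding windows. Counts stayed within 1.5 times, and the density and the median fold within their intervals, under the other alternatives, which were a window of 50 kb (56 peaks, 9 genes, background 92.3%), stricter fold or q, summits in place of intervals, other distances to an end and the 5′ end alone. The background moved with the thresholds. With a fold of 10 or more, 8 of 10 MMP genes had a peak within 20 kb against 72.5% of protein-coding genes, a small gap for 10 genes. At the same cut, 4 of 10 had one within 1 kb of an end against 45.4%. With a −log10 q of 10 or more the same counts stood against 79.8% and 53.8%, and with a fold of 5 or more against 83.4% and 57.6%. MMP2 had no peak even within 50 kb. No paired analysis was possible because each group had 1 library, and none could be left out. Pileups under about 20 fragments have wide counting intervals, and the order of such peaks cannot be read.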

Other observations

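The ADAM genes, membrane-bound relatives of the MMPs that shed growth factors and receptors from the cell surface, were counted in the same way. Of 9 genes, 8 had a peak within 20 kb and 7 had one within 1 kb of an end, beside 86.3% and 62.3% of all protein-coding genes and 8 of 10 and 4 of 10 MMP genes. The highest folds at an end were 57.3 at ADAM10 (178 fragments), 24.1 at ADAM17 (87 fragments) and 21.7 at ADAM19 (93 fragments), and in all 3 genes a peak lay within 1 kb of a 5′ end in the promoter table. ADAM10 and ADAM17 are the main sheddases of EGF-like ligands. ADAM28 had no peak within 20 kb. ADAM12, chosen after its values were seen, had 16 peaks within 20 kb of its 376 kb span and the highest fold of the 4 lists, 126, but no peak within 1 kb of an end. The difference from the MMP genes was not tested.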
